A study of Mus musculus with 6 samples.

Results

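The adaptor protein PTIP and the MLL3/4 histone methyltransferase complexes were followed at the RNA level in Pax2 null and Pax2 heterozygous cells of the mouse embryo. The 10 genes were listed by name as subunits of these complexes, not by their values, though earlier results of these data were known. Every probe set that the array annotation assigns to exactly 1 of them was kept. This gave 24 probe sets of the 45037 tested, with 7 genes read by several probe sets and Ncoa6, Rbbp5 and Dpy30 by 1 each. A further probe set that carries the symbol of Pagr1a together with that of another gene was left out.

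PTIP, encoded by Paxip1, binds Pax2 and brings the MLL3/4 complexes to DNA that Pax2 occupies, where they methylate lysine 4 of histone H3. Kmt2c (MLL3) and Kmt2d (MLL4) are alternative catalytic subunits, and they are best known for monomethylation at enhancers. PTIP, its partner PA1 (Pagr1a), the histone H3 lysine 27 demethylase UTX (Kdm6a) and the coactivator NCOA6 are found in MLL3/4 complexes, whereas Wdr5, Rbbp5, Ash2l and Dpy30 form a core shared with the other methyltransferases of the family.

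The cells were EGFP-positive cells sorted by fluorescence from the intermediate mesoderm region at E11.5. The 3 null samples are titled EGFP/EGFP and labelled Pax2 null, and the 3 heterozygote samples are titled EGFP/+ and labelled Pax2 heterozygote, so both groups carry EGFP and lack at least 1 functional Pax2 allele, and no wild-type sample was analysed here. Values are RMA values on a log2 scale, 1 per probe set and array, and changes are null minus heterozygote, so that 1 unit is a 2-fold difference. The labels do not say whether samples came from separate litters or from pooled embryos. The p-values therefore reflect how far these 6 samples spread, and that spread may be technical in part.

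Array medians lay between 6.12 and 6.24, and arrays of 1 genotype correlated at 0.976 to 0.991 over all probe sets. By their 14 bacterial hybridization controls the arrays formed 3 pairs of a null and a heterozygote array: null 3 with heterozygote 1 (pair 1), null 1 with heterozygote 2 (pair 2) and null 2 with heterozygote 3 (pair 3). The labels do not give these pairs, which rest on the control probe sets alone. The mean level over the 10 listed kidney markers was 8.54 to 9.02 in null arrays and 9.81 to 10.24 in heterozygote arrays. That mean does not show each marker to be present. Lhx1 read 5.90, 6.42 and 5.85 in null 1, 2 and 3, near the array medians, against 8.27, 8.55 and 8.83 in heterozygote 1, 2 and 3. Kidney markers were lower in null in 10 of 10 genes, of which 4 passed (Lhx1, Ret, Gata3 and Sall1), while stromal markers were higher in 7 of 7, of which 5 passed. The 8 macrophage markers were all higher in null and 0 passed, with mean levels of 6.81 to 7.86 in null arrays and 5.75 to 6.67 in heterozygote arrays, and the defining leukocyte gene Ptprc was dim in both (3.77 in null and 3.66 in heterozygotes). With the array pair as a block, Tyrobp (limma, adjusted p = 0.0308) and Laptm5 (0.0440) of the macrophage list also passed, as did Eya1 (0.0321) and Six2 (0.0420) of the kidney list and Pdgfra (0.0478) of the stromal list. Endothelial markers gave 0 of 10 probe sets passing (median change 0.07) and erythroid markers 0 of 8 (0.53). Of 15 neuronal probe sets, 1 passed as higher in null and 2 as lower (median change 0.29). Over all probe sets, 0.691% passed in the main fit and 1.71% with the pair as a block. In the main fit, kidney and stromal markers differed between the genotypes, each list in 1 direction. The lists were chosen with earlier results of these data known, so this shared direction is a description and not a test. The part of any of these cell types in the values below was not tested. In such bulk samples fewer cells of a type and less RNA per cell cannot be told apart.

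None of the 24 probe sets passed the test for a difference between null and heterozygous cells. In limma, adjusted over all 45037 probe sets, 0 passed an adjusted p of 0.05, where 0.691% of all probe sets passed, and the smallest adjusted p among the 24 was 0.697. At an unadjusted p of 0.05 the count was also 0, where 7.66% of all probe sets passed and 3.63% did so as lower in null. The changes ran from -0.54 to 0.13 with a median of -0.07, against -0.01 over all probe sets, and 14 of the 24 were negative (58.3%, against 52.6% of all). Their median size was 0.11, against 0.15 over all probe sets.

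The 95% interval of the change lay within 2-fold in either direction for 21 of the 24 probe sets, or 87.5%, against 83.0% of all probe sets. For the brightest probe set of each gene this held in 10 of 10. The 3 wider intervals belonged to 1 probe set of Kmt2d and 2 of Kdm6a. With 3 arrays a genotype and adjustment over all probe sets, a change has to be well beyond its interval's half-width to pass, so the count of 0 alone does not bound the changes, and the intervals give the bounds.

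**Figure D1:**
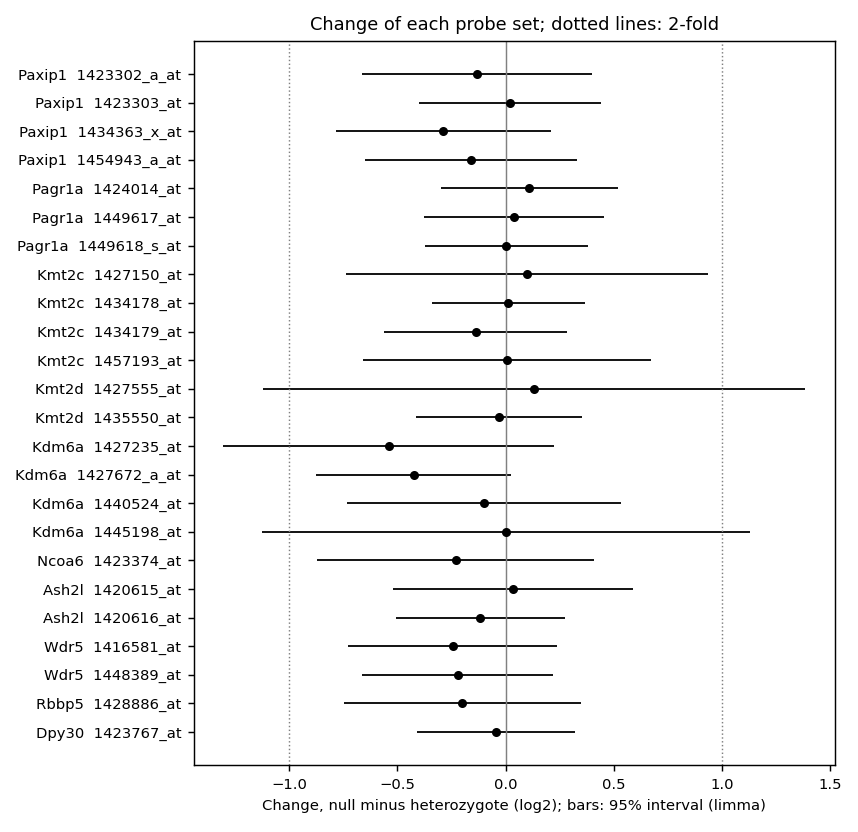
Change of each of the 24 probe sets, null minus heterozygote, on the log2 scale (x axis), with the 95% interval from limma as a bar and dotted lines at a 2-fold difference. All 24 bars cross 0, and 3 of them cross a dotted line, those of Kmt2d 1427555_at and of Kdm6a 1427235_at and 1445198_at.

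Paxip1 was read by 4 probe sets. The brightest of them, 1423303_at, read 9.16, 9.04 and 9.14 in null 1, 2 and 3, against 9.40, 8.88 and 9.01 in heterozygote 1, 2 and 3. The null values lay inside the heterozygote range, and the means were 9.11 ± 0.07 in null and 9.09 ± 0.27 in heterozygotes (SD, n = 3 each). The change was 0.02 ± 0.18 (SE), with an interval from -0.40 to 0.44 (limma, adjusted p = 0.999).

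The other probe sets of Paxip1 had negative changes, of -0.13 ± 0.23 for 1423302_a_at, -0.29 ± 0.21 for 1434363_x_at and -0.16 ± 0.21 for 1454943_a_at (SE). None passed, and the arrays of the genotypes overlapped for each. Probe set 1423302_a_at read 7.74, 7.89 and 8.31 in null cells, against 8.49, 7.89 and 7.97 in heterozygous cells. Probe set 1454943_a_at read 7.95, 8.14 and 8.42 in null cells, against 8.66, 8.08 and 8.26 in heterozygous cells. In both, null 3 and heterozygote 1 were the highest arrays of their genotype, and null was lower in each of the 3 pairs. In 1434363_x_at the null arrays read 7.37, 7.16 and 7.80, against 7.96, 7.70 and 7.54 in heterozygotes, and null was lower in each pair, by differences of -0.15, -0.33 and -0.38 in pairs 1, 2 and 3. The suffix _x marks a probe set with probes that may bind other transcripts, so its reading is less certain. With the pair as a block it had a change of -0.29 ± 0.12 (SE) and still did not pass (limma, adjusted p = 0.338).

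Pagr1a encodes PA1, a small protein that binds PTIP. Its brightest probe set, 1424014_at, read 10.51, 10.23 and 10.15 in null cells, against 10.32, 10.25 and 9.99 in heterozygous cells. The genotypes overlapped, and the change was 0.11 ± 0.18 (SE, limma adjusted p = 0.999) with an interval from -0.30 to 0.52. Probe set 1449617_at read 8.04, 7.66 and 7.99 in null cells, against 8.07, 7.76 and 7.75 in heterozygous cells, a change of 0.04 ± 0.18 (SE). Probe set 1449618_s_at, whose suffix marks possible binding to related transcripts, read 9.88, 9.72 and 10.01 in null cells, against 10.04, 9.81 and 9.76 in heterozygous cells, a change of 0.00 ± 0.16 (SE). All 3 changes thus lay at or just above 0, with overlapping arrays.

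No probe set of the catalytic subunits passed either, and their probe sets differed in how far arrays spread. For Kmt2c, 1457193_at read 9.89, 9.49 and 9.32 in null cells, against 9.07, 10.12 and 9.49 in heterozygous cells, a change of 0.01 ± 0.29 (SE). Probe set 1434178_at was steadier, with a mean of 8.50 ± 0.07 in null and 8.49 ± 0.14 in heterozygotes (SD, n = 3 each). Its arrays read 8.58, 8.47 and 8.45 in null cells, against 8.33, 8.55 and 8.58 in heterozygous cells. Probe set 1427150_at read 9.78, 9.88 and 8.96 in null cells, against 8.73, 9.75 and 9.84 in heterozygous cells, and was low in null 3 and heterozygote 1. Probe set 1434179_at read 9.02, 8.85 and 9.40 in null cells, against 9.24, 9.17 and 9.26 in heterozygous cells, and was highest in null 3. The changes of the 4 Kmt2c probe sets ran from -0.14 to 0.10, and each had overlapping arrays.

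For Kmt2d, 1435550_at read 10.36, 10.12 and 10.49 in null cells, against 10.26, 10.48 and 10.32 in heterozygous cells. Its change was -0.03 ± 0.17 (SE), with an interval from -0.42 to 0.35. The second Kmt2d probe set, 1427555_at, read 9.50, 9.74 and 8.25 in null 1, 2 and 3, against 7.94, 9.39 and 9.76 in heterozygote 1, 2 and 3. Here 1 array of each genotype was low, null 3 and heterozygote 1, which are the arrays of pair 1, and the interval of the change was wide, from -1.12 to 1.38.

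**Figure D2:**
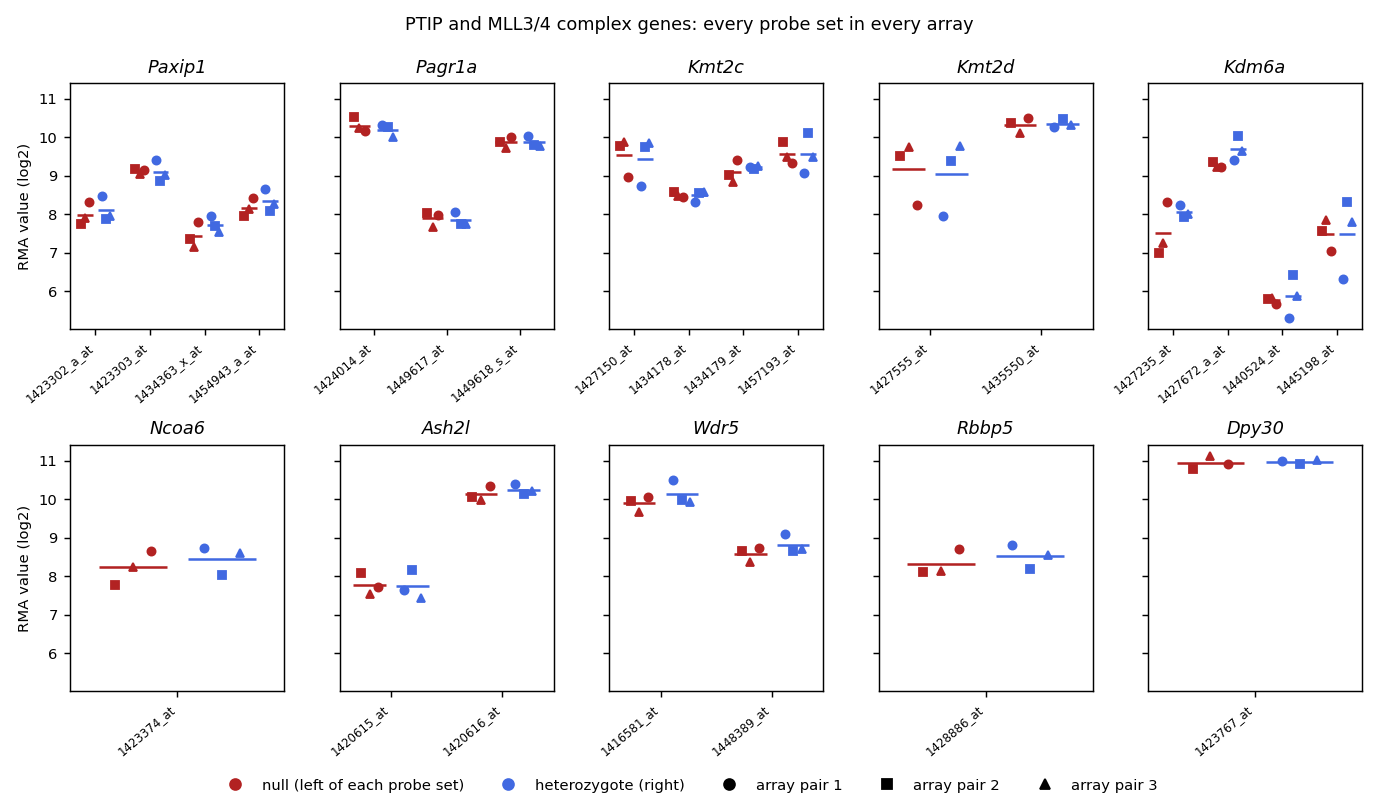
RMA values (log2, y axis) of every probe set of the 10 genes (x axis), null arrays in red on the left and heterozygote arrays in blue on the right of each probe set, with horizontal lines at the means of 3 arrays and symbol shapes for the 3 array pairs. Red and blue overlap for 23 of the 24 probe sets, and in Kmt2d 1427555_at the circles of pair 1 lie below the other 4 arrays in both genotypes.

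Kdm6a, whose enzyme removes methyl groups from lysine 27 of histone H3, had the lowest single change of the 10 genes. Probe set 1427672_a_at read 9.36, 9.23 and 9.22 in null cells, against 9.41, 10.04 and 9.65 in heterozygous cells. Every null array lay below every heterozygote array, the closest being 9.36 in null 1 and 9.41 in heterozygote 1, and this was the only one of the 24 probe sets (4.17%) without overlap, against 11.7% of all probe sets, of which 6.13% had all null arrays lower. The change of -0.43 ± 0.19 (SE), with an interval from -0.88 to 0.02, did not pass (limma, adjusted p = 0.697), and the exact permutation test over 3 against 3 arrays gave its smallest possible two-sided p of 0.10. With 1 array left out the change ran from -0.57 to -0.26, the value nearest 0 being that without heterozygote 2. With the pair as a block the change was -0.43 ± 0.14 (SE, limma adjusted p = 0.253).

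The other Kdm6a probe sets did not follow it evenly. Probe set 1427235_at read 7.00, 7.24 and 8.31 in null cells, against 8.23, 7.94 and 8.00 in heterozygous cells, and 2 of the 3 null arrays lay below all heterozygotes while null 3 lay above them. Its change was -0.54 ± 0.33 (SE, limma adjusted p = 0.890), and with 1 array left out it ran from -0.94 (without null 3, adjusted p = 0.148) to -0.28. Probe sets 1440524_at and 1445198_at had changes of -0.10 ± 0.27 and 0.00 ± 0.48 (SE). Probe set 1440524_at, the dimmest of the 24, read 5.80, 5.83 and 5.68 in null cells, against 5.31, 6.42 and 5.87 in heterozygous cells. Probe set 1445198_at read 7.56, 7.85 and 7.04 in null cells, against 6.33, 8.32 and 7.80 in heterozygous cells. In both, the null arrays lay within the wider range of the heterozygotes.

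Kdm6a lies on the X chromosome and is known to escape X inactivation, so that female cells express it from both copies, and Uty is its counterpart on the Y. The genes diverged from a common ancestor, and their promoters are shown to make that relation visible beside their readings. The 100 bases before each RefSeq gene start (GRCm38.p6) are chrX:18162475-18162574 on the plus strand for Kdm6a and chrY:1245760-1245859 on the minus strand for Uty. Capitals mark the ungapped block with the highest score, in which matches add and mismatches subtract.
Kdm6a: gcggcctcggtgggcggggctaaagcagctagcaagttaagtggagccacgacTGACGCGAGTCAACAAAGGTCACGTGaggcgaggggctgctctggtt
Uty: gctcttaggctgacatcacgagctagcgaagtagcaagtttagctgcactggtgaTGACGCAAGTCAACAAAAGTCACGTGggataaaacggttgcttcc
The block is 26 bases long with 24 identical, and begins 47 bases before the start of Kdm6a and 45 before that of Uty. Written with N at the differing positions, as TGACGCNAGTCAACAAANGTCACGTG, it occurred on either strand in 2 of 32851 promoters of the table, those of Kdm6a and Uty. That pattern was made from the Kdm6a and Uty sequences, so its match to both was fixed in advance. The hexamer CACGTG, which is its own reverse complement and closes the block, occurred in 7.15% of the 32851 promoters.

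Sex-linked genes varied widely between the arrays. Xist, the RNA of the inactive X, read 4.02, 8.84 and 10.80 in null 1, 2 and 3, against 10.38, 11.69 and 10.97 in heterozygote 1, 2 and 3. Uty read 7.10, 7.59 and 5.56 in null cells, against 5.74, 3.34 and 6.68 in heterozygous cells. Null 1 was thus lowest for Xist, heterozygote 2 was lowest for Uty, and the other 4 arrays read well above those minima for both. Kdm6a 1427672_a_at was highest in heterozygote 2 and lowest in null 3, and null 1 was its highest null array. Kdm6a 1427235_at was lowest in null 1 and highest in null 3, and heterozygote 2 was its lowest heterozygote array. Kdm6a 1427235_at and Xist thus shared their lowest arrays, null 1 and null 2, but not their highest. Kdm6a 1427672_a_at was highest in heterozygote 2, where Uty was lowest.

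None of the 7 sex-linked genes passed in limma. At an unadjusted p of 0.05, 1 of their 27 probe sets passed as higher in null and 2 as lower, where 7.66% of all probe sets passed. The changes of the 27 ran from -3.61 to 2.51, and those that follow are of each gene's brightest probe set. The Y-linked histone demethylase gene Kdm5d had a change of 2.51 ± 1.42 (SE, adjusted p = 0.855), Eif2s3y of 1.52 ± 1.08 and Xist of -3.13 ± 1.49 (adjusted p = 0.736). The X-linked genes Eif2s3x, Ddx3x and Kdm5c, which encode a translation factor subunit, an RNA helicase and a histone demethylase, had changes of -0.32 ± 0.16, -0.12 ± 0.19 and 0.15 ± 0.38 (SE). A score of 3 Y-linked genes minus Xist was also used as a covariate. The change of Kdm6a was then -0.31 ± 0.28 for its brightest probe set 1427672_a_at and -0.12 ± 0.39 for 1427235_at (SE). The intervals ran from -0.97 to 0.35 and from -1.06 to 0.82. That score itself was -3.45 to 4.69 in null arrays and -8.24 to -2.92 in heterozygote arrays, and 1 of 45037 probe sets passed in the fit that held it. The part of sex make-up in the Kdm6a values was not tested further.

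**Figure D3:**
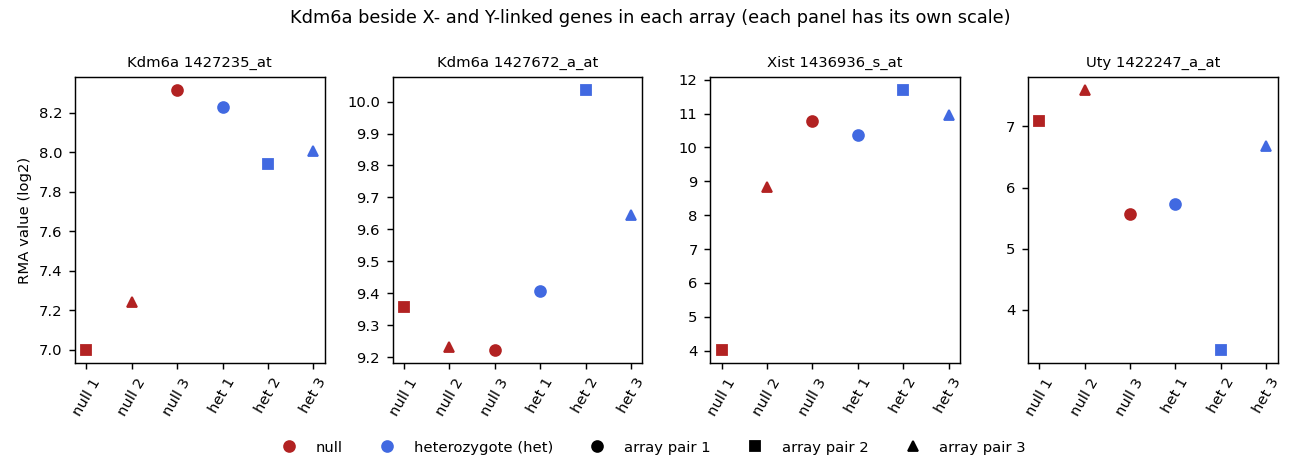
RMA values (log2, y axis, a scale for each panel) of Kdm6a 1427235_at and 1427672_a_at, Xist and Uty in each array (x axis), null in red and heterozygote in blue, with shapes for array pairs. In 1427672_a_at the 3 null arrays lie at 9.22 to 9.36 and the heterozygotes at 9.41 to 10.04, while Xist is lowest in null 1 (4.02) and Uty in heterozygote 2 (3.34).

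Ncoa6, a coactivator that binds nuclear receptors, read 7.77, 8.25 and 8.65 in null cells, against 8.73, 8.04 and 8.60 in heterozygous cells. The change was -0.23 ± 0.28 (SE, limma adjusted p = 0.999), and null was lower in each pair, by differences of -0.07, -0.27 and -0.35 in pairs 1, 2 and 3. The genotypes overlapped, since heterozygote 2 lay below 2 null arrays. The change was -0.0052 without null 1 and -0.44 without null 3.

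The core subunits did not pass either. Wdr5, the WD-repeat protein that holds the catalytic subunit to the rest of the core, read 9.94, 9.67 and 10.06 in null cells at 1416581_at, against 10.49, 9.99 and 9.93 in heterozygous cells. Its change was -0.25 ± 0.21 (SE), and heterozygote 1 lay above the other 5 arrays. Probe set 1448389_at read 8.66, 8.36 and 8.74 in null cells, against 9.08, 8.65 and 8.69 in heterozygous cells, a change of -0.22 ± 0.19 (SE, limma adjusted p = 0.984 for each). Rbbp5, which with Ash2l stimulates the catalytic subunit, read 8.11, 8.13 and 8.70 in null cells, against 8.81, 8.18 and 8.55 in heterozygous cells, a change of -0.20 ± 0.24 (SE). Its null 3 and heterozygote 1 were the highest arrays of their genotype. With 1 array left out, the change of Wdr5 1416581_at ran from -0.35 to -0.068 and that of Rbbp5 from -0.39 to -0.051, both nearest 0 without heterozygote 1.

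Ash2l read 10.06, 9.98 and 10.35 at 1420616_at in null cells, against 10.40, 10.14 and 10.20 in heterozygous cells. The change there was -0.12 ± 0.17 (SE). Probe set 1420615_at read 8.09, 7.53 and 7.72 in null cells, against 7.63, 8.15 and 7.44 in heterozygous cells, a change of 0.03 ± 0.24 (SE). The arrays overlapped for both. Dpy30, the small subunit that binds Ash2l, read 10.77, 11.11 and 10.91 in null cells, against 11.00, 10.90 and 11.01 in heterozygous cells. Its change was -0.04 ± 0.16 (SE), with an interval from -0.41 to 0.32 (limma, adjusted p = 0.999). Over the 6 core probe sets the median change was -0.16, against -0.01 over the 18 of the subunits particular to MLL3/4, and neither group held a probe set that passed.

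Pair 1 differed from the other pairs by more than the genotypes did for most of these probe sets, as it did for most probe sets of the array. The difference of pair 1 from the mean of pairs 2 and 3, taken in a fit that also held genotype and chosen after the data were seen, was larger in size than the genotype change in 21 of 24 probe sets (87.5%), against 65.4% of all and 70.0% of those at least as bright as the dimmest of the 24. For the brightest probe set of each gene it was larger in 7 of 10 (70.0%). Both arrays of pair 1 lay outside the range of the other 4 in 16 of 24 (66.7%), where 35.8% of all probe sets and 45.2% of those at least as bright as the dimmest of the 24 did so. They were both higher in 10 and both lower in 6. None of the 24 passed this contrast in limma, where 0.00222% of all probe sets passed, the smallest adjusted p being 0.0528. At an unadjusted p of 0.05, 11 of the 24 passed, where 31.4% of all did. For this count no share among equally bright probe sets was taken.

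The sign of this difference split probe sets of the same gene. Kmt2d 1427555_at was lower in pair 1 by a difference of -1.50 ± 0.13, while 1435550_at stood at 0.06 ± 0.14 (SE). Kmt2c 1427150_at stood at -0.97 ± 0.12, with 8.96 in null 3 and 8.73 in heterozygote 1, against 9.75 to 9.88 in the other arrays, whereas Kmt2c 1434179_at stood at 0.24 ± 0.16 (SE). Kdm6a 1445198_at stood at -1.20 ± 0.30 and Kdm6a 1427235_at at 0.72 ± 0.24 (SE).

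Among 7 genes with several probe sets, 5 had both signs. All 4 probe sets of Paxip1 were higher in pair 1, by 0.25 to 0.53, as were both of Wdr5 (0.39 and 0.32) and the single ones of Ncoa6 (0.52) and Rbbp5 (0.51). What differed between the arrays of pair 1 and the rest was not tested. Since each pair holds both genotypes, the genotype change is the same with and without the pair in the fit, and 0 of the 24 probe sets passed with it, where 1.71% of all did, 0.695% of all as lower in null. Of the 24, 9 had a difference of 1 sign in all 3 pairs (37.5%, against 38.1% of all), and 8 of those were lower in null. For that split by direction no share over all probe sets was taken. The 8 include 1423302_a_at, 1434363_x_at and 1454943_a_at, which all read Paxip1, so they are not separate genes.

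**Figure D4:**
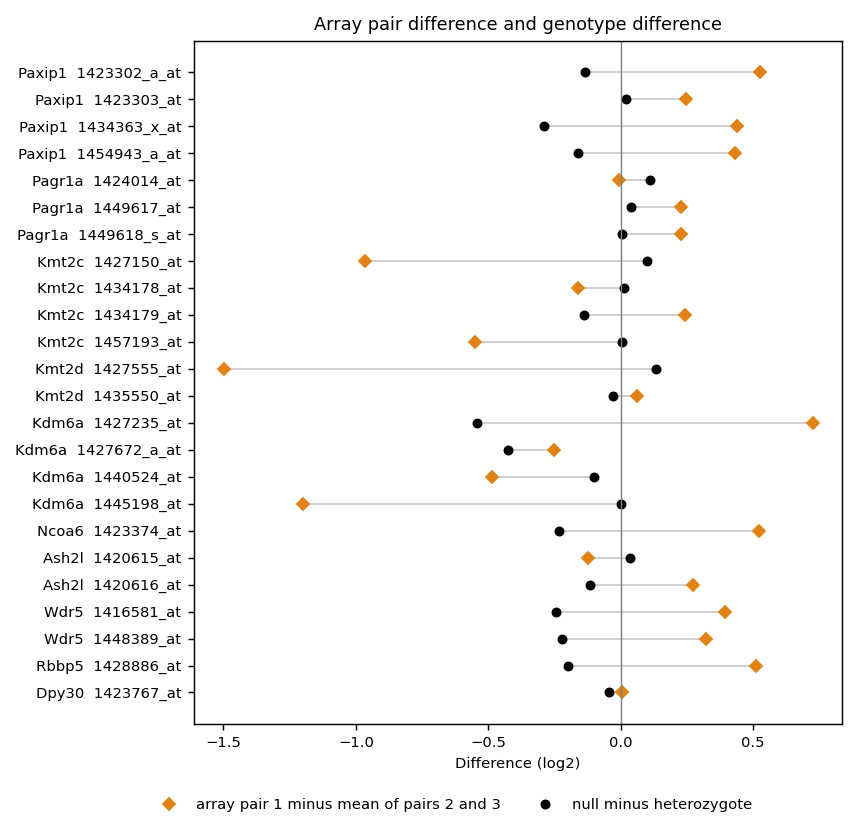
Difference of array pair 1 from the mean of pairs 2 and 3 (orange diamonds) and of null from heterozygote (black circles) for each probe set, on the log2 scale (x axis), with grey lines joining the values of a probe set. The diamonds reach from -1.50 to 0.72, while the circles stay between -0.54 and 0.13.

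Of 10939 genes with a mean above the median of all probe sets, those most like Paxip1 1423303_at over the 6 arrays were Cd320 (Pearson r = 0.986), Tapbpl (0.982) and Wrap53 (0.981). Within the complex, the brightest probe sets of Wdr5 (0.73), Rbbp5 (0.61) and Ash2l (0.58) ran highest with it and Kmt2c (-0.74) and Kdm6a (-0.60) lowest. These values are descriptions over 6 arrays that share the pair differences above. Other probe sets of these genes were not compared with Paxip1. The brightest ones of Kmt2c and Kdm6a were lower in pair 1 (-0.55 and -0.25). Kmt2c 1434179_at and Kdm6a 1427235_at were higher there (0.24 and 0.72), so the negative values do not stand for the genes as a whole.

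Genes that work beside the complex were also without a called probe set. Over all probe sets 0.691% passed, and 7.66% did at an unadjusted p of 0.05 (limma). At a share of 0.691%, a count of 0 in lists this small does not set these genes apart. The other methyltransferases of the family and their own subunits, which include Kmt2a, Kmt2b, Setd1a and Setd1b, gave 0 of 22 probe sets, and 0 at an unadjusted p of 0.05 in limma. In this list and those below, genes were ranked by the p-value of their brightest probe set. The smallest here belonged to Psip1 (-0.34 ± 0.18, SE), Setd1b (0.38 ± 0.30) and Cxxc1 (0.15 ± 0.20). Among the enzymes and partners of histone H3 lysine 27 methylation and its removal, 0 of 29 probe sets passed (1 at an unadjusted p of 0.05). The median change was -0.08. By brightest probe set, Eed (-0.38 ± 0.20), Uty (1.50 ± 0.85) and Suz12 (-0.23 ± 0.15) had the smallest p-values. The probe set under 0.05 was a dimmer one of a listed gene, and the smallest adjusted p of the 29 was 0.244 (limma). All 6 probe sets of Suz12 and both of Eed, which are subunits of the Polycomb complex that methylates lysine 27, had negative changes that did not pass. Kdm6b, the relative of Kdm6a with the same activity, stood at 0.00 ± 0.20 (SE).

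Demethylases of histone H3 lysine 4, which act against the complex, gave 0 of 25 probe sets (1 at an unadjusted p of 0.05). By brightest probe set, Kdm5d (above), Kdm1b (-0.33 ± 0.26) and Kdm1a (-0.13 ± 0.16, SE) had the smallest p-values. The probe set under 0.05 was a dimmer one of a listed gene, and the smallest adjusted p of the 25 was 0.629 (limma). Histone acetyltransferases and coactivators of enhancers gave 0 of 21 at either threshold, and the smallest p-values were those of Med1 (-0.18 ± 0.16), Ncoa2 (0.20 ± 0.25) and Crebbp (0.09 ± 0.16). Genes of the DNA damage response in which PTIP also acts gave 0 of 14 (1 at an unadjusted p of 0.05), with a median change of -0.13. There, Mad2l2 read 10.42, 10.49 and 9.91 in null cells, against 9.38, 9.85 and 9.74 in heterozygous cells, with no overlap and a change of 0.62 ± 0.22 (SE) that did not pass (limma, adjusted p = 0.470), followed by Atm (-0.42 ± 0.21) and Rif1 (-0.39 ± 0.37).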

How the data were processed

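RNA of 6 samples was amplified from 10 ng with the WT-Pico Ovation kit and hybridized to a 1-colour mouse array, per the labels' protocols. The deposited values are log2 RMA values, 1 per probe set and array, and the submitters' processing notes name affy, RMA and limma without versions. RMA equalizes distributions between arrays and compresses differences of dim probe sets. No depth applies to arrays, and the number of arrays limits the precision. Of 45101 probe sets, 64 array controls were left out, and 34945 of the rest had exactly 1 symbol. All 24 studied probe sets matched their RefSeq symbol. The genotype labels were not checked against Pax2 itself, which is not analysed here.

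R 4.3.3 with limma 3.58.1 gave the comparison of null with heterozygote (lmFit and eBayes, two-sided, without covariates, Benjamini-Hochberg over all 45037 probe sets, threshold 0.05). Errors of means are SDs and errors of changes SEs. The fit was tested on simulated data, with 50 changed probe sets of each size. It recovered 2% of changes of 0.5 log2 units, 22% of 1, 62% of 2 and 90% of 3. Alternatives were other priors, median centring, quantile normalization done again, omission of probe sets under percentile 33 of level, array weights, other thresholds, unmoderated variances, genes as units, the array pair as a block, the sex-linked score, and omission of arrays or pairs. The pair contrast was added later. Members and gene lists were chosen with earlier results of these data known. Named genes are all member probe sets, all sex-linked genes, and the 3 genes most like Paxip1. From each related list, the 3 genes whose brightest probe set had the smallest p-values were named.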

Additional observations from a re-analysis of the deposited data

How the results depend on the processing

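The count of 0 of 24 probe sets passing held under every alternative run, with a smallest adjusted p of 0.148 (limma, without null 3). The median change over the probe sets stayed between -0.14 and -0.04. Over all probe sets, 311 passed. With 1 array left out that count ran from 65 to 413, and it was 137 without array pair 1, 0 without pair 2 and 0 without pair 3. It was 650 with array weights, 772 with the array pair as a block, 1 with the sex-linked score, 2 with unmoderated variances, 516 at an adjusted p of 0.10 and 61 at 0.01. No paired analysis from the labels was possible because they give no numbers shared between the genotypes.

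For the brightest probe set of each gene, 178 of 200 values under an alternative had the sign reported, 22 had the other sign, and 0 passed. Part of the 178 was fixed in advance. The change cannot differ from the main fit with other priors, unmoderated variances, dim probe sets left out or the pair as a block. The same holds for the fit with 1 probe set a gene. The 178 thus overstates how steady the signs were. With 1 array left out, changes ran from -0.13 to 0.034 for Dpy30, from -0.24 to 0.28 for Kmt2c, from -0.11 to 0.073 for Kmt2d and from -0.090 to 0.17 for Paxip1. For Pagr1a they ran from 0.0018 to 0.18 and for Ash2l from -0.22 to -0.042. With median centring they were -0.023 for Kmt2c and -0.010 for Paxip1, and with array weights -0.038 for Kmt2c. With a gene's probe sets averaged they were -0.0048 for Kmt2c, 0.051 for Kmt2d and -0.14 for Paxip1. With the sex-linked score they were 0.060 for Kmt2d, -0.0041 for Pagr1a and -0.10 for Paxip1. Without pair 1, Kmt2c stood at -0.11. Without pair 2, Kmt2d stood at 0.013 and Paxip1 at -0.11, and without pair 3 Kmt2d stood at 0.054. The cause of these shifts was not tested. With 3 arrays a genotype, the median 95% interval of the 24 changes reached 0.48 log2 units to either side.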
